A study of Sus scrofa with 4 samples.

Results

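The genes described here are the ligands and receptors that steady a newly formed blood vessel: the PDGF ligand and receptor PDGFB and PDGFRB, the angiopoietins ANGPT1 and ANGPT2 with their receptors TEK (also called TIE2) and TIE1, and the Notch ligands and receptors DLL1, DLL4, NOTCH1 and NOTCH3. They were taken by symbol from the gene tables of 4 single-cell libraries. Of the 10 genes named, 9 had a row among the 20648 genes, and PDGFB was not analysed here. The libraries are droplet 3′ single-cell RNA libraries from regenerated bone of Bama mini-pigs, a small pig breed (Sus scrofa), at 8 months of age. A peptide called 1797 was given in 2 libraries and a control peptide in 2 libraries, and no other treatment or genotype is stated. The sources used here do not say whether the libraries of a group came from different animals, and the p-values below therefore measure no more than the spread among these 4 samples, a spread that can be technical. The tissue was digested with collagenase and red cells were lysed, so each cell class is what survived that digestion. Other control samples of the series were not analysed here.

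As background, a new vessel is a tube of endothelial cells that becomes stable when mural cells (pericytes and smooth muscle cells) settle on it. Endothelial cells release PDGF-B, which draws in mural cells through the receptor PDGFRβ. ANGPT1, made by mural and other mesenchymal cells, activates the endothelial receptor TEK and holds the vessel quiet, whereas ANGPT2 can block or weaken that signal, and TIE1 is a partner receptor without a classical ligand of its own. DLL4 on endothelial cells signals through NOTCH1 on neighbouring cells and restrains sprouting, DLL1 is a related ligand, and NOTCH3 is the Notch receptor of mural cells. In bone these pairs are known from vessels that grow together with new bone.

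Filtering left 49137 cells, namely 12218 and 12688 with 1797 against 12765 and 11466 with control peptide. Median depth was 3863 and 3146 UMIs per cell with 1797 against 5345 and 4606 with control peptide. A UMI is a molecular tag that counts 1 captured transcript. Pairs of libraries shared 42 to 63 cell barcodes, which were kept. Clusters were named only from markers, and none of the 9 genes was used to cluster or name the cells. The 760 endothelial-like cells were in 8 sub-clusters in which 10 to 12 of 12 endothelial markers (PECAM1, CDH5, VWF and others) were raised, and the 441 mural-like cells were in 5 sub-clusters with 11 or 12 of 12 measured mural markers (RGS5, ACTA2, MYH11 and others) raised. Endothelial-like sub-clusters 15 and 16 also led with lymphocyte or myeloid genes (KLRK1; CXCL8 and TREM1), sub-cluster 7 with neutrophil genes (LTF, S100A12, S100A9, S100A8) beside its arterial genes, and mural-like sub-cluster 23 with B-cell genes (BLNK, PAX5). Shallow sub-clusters of 274 and 233 cells carried endothelial markers at 0.293 and 0.167 times the median depth of their libraries, and were left unnamed.

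Vessel cells were few and uneven between libraries. Endothelial-like cells numbered 433 and 58 with 1797 and 86 and 183 with control peptide, and mural-like cells 312 and 16 against 16 and 97. As shares of kept cells these were 3.54% and 0.457% with 1797 and 0.674% and 1.60% with control peptide for endothelial-like cells. For mural-like cells they were 2.55% and 0.126% against 0.125% and 0.846%. In both classes 1797 library 1 was highest, the groups overlapped, and the 1797 libraries lay further apart than the group means. The log2 ratio of 1797 over control was 0.82 ± 1.16 (SE) for endothelial-like and 1.46 ± 1.69 for mural-like cells (edgeR quasi-likelihood test over 17 classes, adjusted p = 0.969 for both, n = 2 libraries each). Without 1797 library 1 the ratios turned to -1.31 and -1.93.

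**Figure D1:**
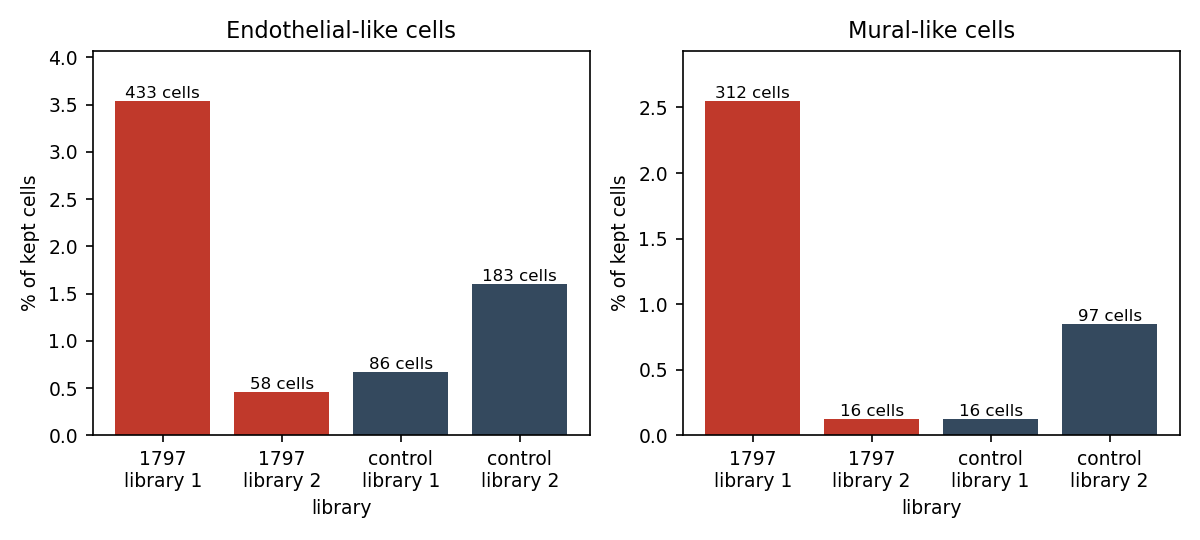
Share of kept cells (%, bars from 0) that were endothelial-like or mural-like in each library, with the number of cells above each bar; 1797 peptide libraries in red, control peptide libraries in dark blue. 1797 library 1 held 433 endothelial-like and 312 mural-like cells, and 1797 library 2 and control library 1 held the fewest of both.

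The genes divided between the cell types of the vessel wall. PDGFRB, ANGPT1, ANGPT2 and NOTCH3 were highest in mural-like cells, TEK, TIE1, DLL1 and DLL4 in endothelial-like cells, and NOTCH1, also highest in mural-like cells, was spread over most classes. Levels are CPM, a gene's UMIs divided by all UMIs of that class in a library and brought to the same fixed total, and are compared between classes within a gene. Orders of classes below cover the 15 classes that reached 10 cells in each library; chondrocyte-like cells (59) and megakaryocyte- or platelet-like cells (66) fell to 2 cells in a library and are outside them. Mural-like cells made up 0.897% of kept cells but held 75.0% of NOTCH3, 54.8% of ANGPT1 and 49.7% of PDGFRB UMIs. Endothelial-like cells made up 1.55% of cells and held 80.7% of TIE1, 67.0% of DLL4, 54.3% of TEK and 38.5% of DLL1 UMIs. These are descriptions, since the genes and the class names come from the same cells.

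**Figure D2:**
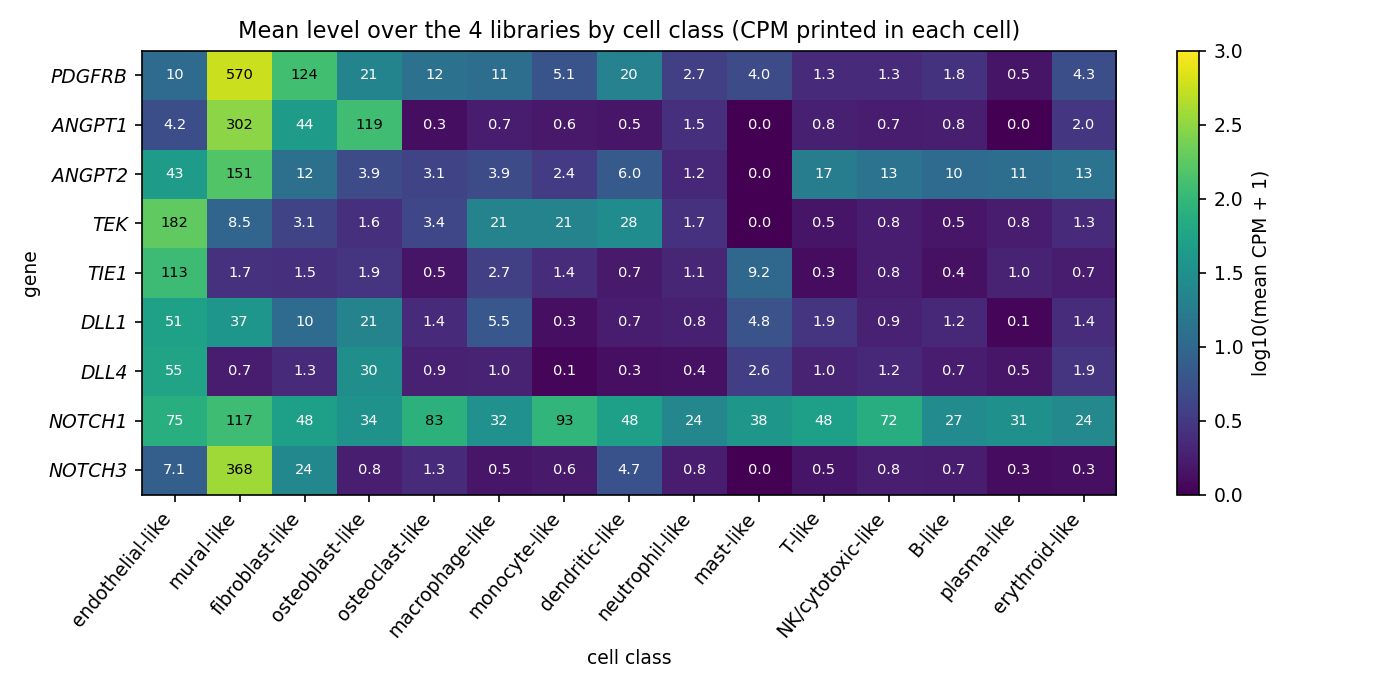
Mean CPM over the 4 libraries (printed; colour is log10 of mean CPM + 1) for 9 genes in the 15 cell classes that reach 10 cells in each library. PDGFRB, ANGPT1, ANGPT2 and NOTCH3 peak in the mural-like column, TEK, TIE1, DLL1 and DLL4 in the endothelial-like column, and NOTCH1 is above 20 CPM in every column.

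**Figure D3:**
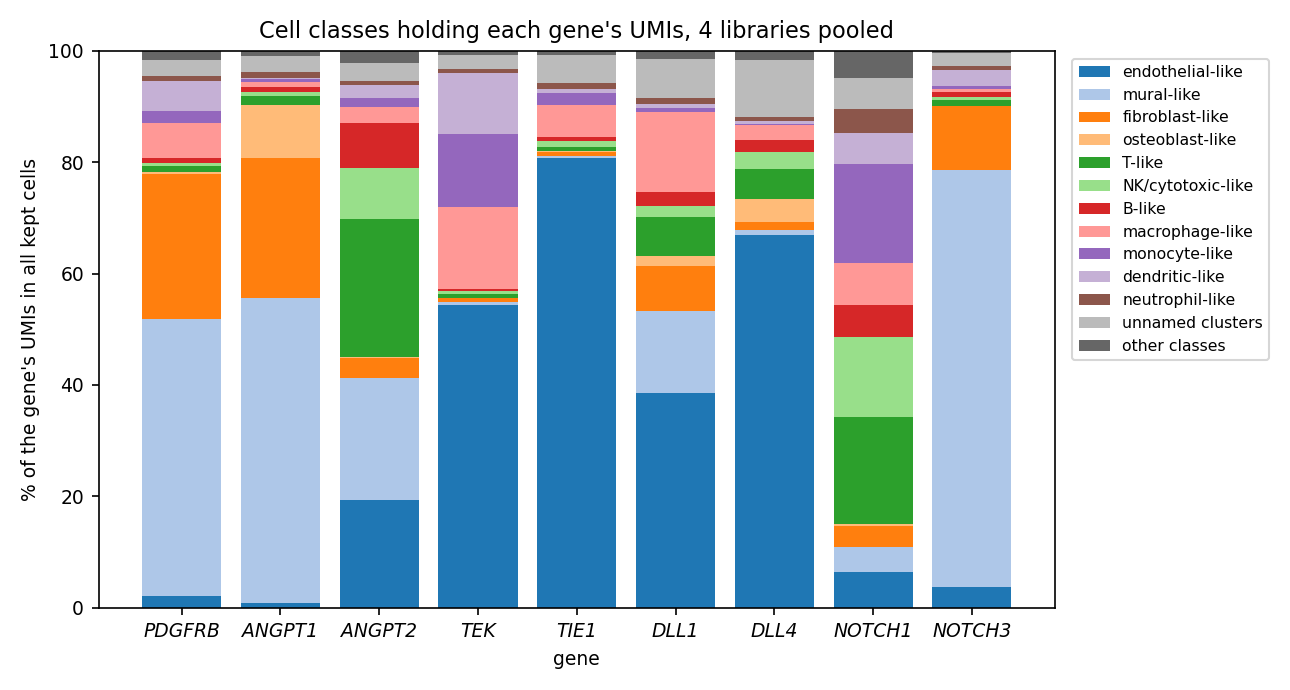
Share (%) of each gene's UMIs over all kept cells, 4 libraries pooled, by the cell class that holds them. Mural-like cells hold 75.0% of NOTCH3 and endothelial-like cells 80.7% of TIE1, while T-like cells hold 24.8% of ANGPT2 and 19.2% of NOTCH1.

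PDGFRB (chromosome 2, 151155753 to 151192818, Sscrofa11.1), the receptor through which PDGF-B recruits pericytes, had 569 and 614 CPM in mural-like cells with 1797 and 534 and 561 CPM with control peptide. Both 1797 libraries lay above both control libraries, and the log2 fold change of 0.18 ± 0.24 did not pass (edgeR, adjusted p = 0.999). Fibroblast-like cells followed with 154 and 97.0 CPM against 126 and 118 CPM, or 124 ± 23.6 CPM (SD, n = 4 libraries), and did not overlap with mural-like cells. Each of the other 13 classes was at 21.3 CPM or less on average, with endothelial-like cells at 10.2 ± 4.03 CPM. Neighbours among these 13 classes overlapped. Dendritic-like cells had 12.2 and 19.4 CPM with 1797 against 20.4 and 28.3 CPM with control peptide (log2 fold change -0.62 ± 0.32, adjusted p = 0.90, edgeR). After every cell was thinned to 1000 UMIs, 48.1% of mural-like cells had a PDGFRB UMI, against 0.271% of neutrophil-like cells, which should lack the gene. Before thinning the shares were 95.7% and 0.538%, at median depths of 14552 and 1757 UMIs.

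The other PDGF genes peaked in 3 classes. PDGFA, a ligand mainly of PDGFRα, was highest in mural-like cells (323 ± 68.3 CPM, SD, n = 4), PDGFC and the receptor PDGFRA in fibroblast-like cells (154 ± 61.1 and 276 ± 73.5 CPM), and PDGFD, which binds PDGFRβ, in osteoblast-like cells (443 ± 254 CPM). In endothelial-like cells PDGFD had 148 and 133 CPM with 1797 and 197 and 188 CPM with control peptide, without overlap, and its log2 fold change of -0.38 ± 0.23 did not pass (edgeR, adjusted p = 0.998). Of the 4 genes of this list, 4 could be tested in all cells and in endothelial-like cells and 3 in mural-like cells, and 0 passed in either direction.

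ANGPT1 (chromosome 4, 29925203 to 30233434) had 240 and 352 CPM in mural-like cells with 1797 and 302 and 313 CPM with control peptide. The 1797 values enclosed the control values, and the log2 ratio of the groups was -0.01 ± 0.30 (quasi-likelihood test of edgeR, adjusted p = 0.999). Osteoblast-like cells came next with 119 ± 51.4 CPM (SD, n = 4), then fibroblast-like cells with 44.2 ± 17.5 CPM, and these 3 classes did not overlap. The other 12 of the 15 classes averaged at most 4.21 CPM, and chondrocyte-like cells, outside that order, had 18.2 CPM with the libraries pooled (26 UMIs). In osteoblast-like cells ANGPT1 had 96.5 and 69.3 CPM with 1797 against 189 and 121 CPM with control peptide, from 61 and 9 UMIs against 215 and 40 UMIs. Both 1797 libraries were below both control libraries. That class had only 10 to 65 cells a library, and its log2 fold change of -0.89 ± 0.45 did not pass (edgeR, adjusted p = 1.00).

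ANGPT2 (chromosome 15, 37544177 to 37600925) was highest in the same mural-like cells, with 152 and 164 CPM with 1797 and 106 and 183 CPM with control peptide. Its log2 fold change there was 0.13 ± 0.35 (edgeR, adjusted p = 0.999). Many cells carried both angiopoietins: 199 of 441 mural-like cells had UMIs of both, 112 of ANGPT1 only, 71 of ANGPT2 only and 59 of neither. Cells with both had a median of 18139 UMIs and cells with neither 8339, so depth moves with these counts.

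In endothelial-like cells ANGPT2 was, of the 8 genes tested there, the one with the widest spread between libraries relative to its mean. It had 61.0 and 13.0 CPM with 1797 and 15.4 and 83.1 CPM with control peptide, so each group had 1 high and 1 low library. A sub-cluster of 14 cells (3 and 0 with 1797, 0 and 11 with control peptide) carried 4 of 5 lymphatic markers (PROX1, FLT4, CCL21, MMRN1) and had 724 CPM of ANGPT2 (95% Poisson interval 640 to 815, counting error only). TEK was at 18.8 CPM in these lymphatic endothelial-like cells, while TIE1 was at 126 CPM. Without them ANGPT2 was at 57.7 and 13.0 CPM with 1797 and 15.4 and 41.5 CPM with control peptide, a calculation added after the levels were seen. Among larger sub-clusters, with the libraries pooled, the 103 cells with STAB2 and FCN2 among their leading genes had 10.3 CPM. The 261 cells of sub-cluster 3 had 61.4 CPM and the 164 arterial-like cells 46.1 CPM. Within sub-cluster 3 ANGPT2 was at 68.3 CPM in 1797 library 1, which held 224 of the 261 cells. It was at 8.11 CPM in 1797 library 2 and at 0.0 CPM in control library 1 there.

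T-like cells held 24.8% of all ANGPT2 UMIs, at 15.1 and 14.0 CPM with 1797 and 22.1 and 18.2 CPM with control peptide (log2 fold change -0.47 ± 0.19, unadjusted p = 0.0503 and adjusted p = 0.993, edgeR). Both 1797 libraries were below both control libraries. Among T-like clusters the level was 46.7 CPM in 548 cells led by LEF1 and THEMIS, 24.7 CPM in 3952 cells led by ICOS and CD28, and 6.95 CPM in the 5242 cells of the remaining cluster. After thinning to 1000 UMIs, 1.62% of T-like cells had an ANGPT2 UMI, against 0.0717% of neutrophil-like cells. The annotated ANGPT2 gene lies wholly within MCPH1 (chromosome 15, 37455186 to 37674971), and whether the counts were made by strand is not given in the sources used here, so reads of these overlapping genes may not be told apart. MCPH1 was at 106, 51.5 and 45.3 CPM in the same 3 T-like clusters, and at 69.1 CPM in mural-like and 75.4 CPM in endothelial-like cells; its part in the ANGPT2 counts was not tested.

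TEK (chromosome 1, 195938177 to 196052294), the angiopoietin receptor, had 185 and 196 CPM in endothelial-like cells with 1797 and 162 and 185 CPM with control peptide. The highest control value and the lowest 1797 value were alike at 3 digits, the 1797 one being the higher, and the log2 ratio of the groups was 0.20 ± 0.24 (quasi-likelihood test of edgeR, adjusted p = 0.998). TIE1 (chromosome 6, 167919662 to 167947253) had 107 and 113 CPM against 123 and 110 CPM, and was the steadiest of the 9 genes in these cells, at 113 ± 7.0 CPM (SD, n = 4). Of 760 endothelial-like cells, 451 had UMIs of both receptors and 107 of neither, with median depths of 20551 and 5215 UMIs. TIE1 averaged 9.24 CPM or less in the other 14 of the 15 classes, whereas TEK was also seen in myeloid classes.

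Dendritic-like cells had 43.0 and 16.5 CPM of TEK with 1797 and 34.9 and 16.5 CPM with control peptide. Monocyte-like cells had 17.0 and 15.2 CPM against 37.1 and 15.1 CPM, and macrophage-like cells 26.9 and 11.14 CPM against 30.3 and 15.8 CPM. In all 3 classes library 1 of each group was above library 2 of that group, and 0 of these 3 differences between the groups passed (log2 fold changes from -0.66 to 0.22, edgeR, adjusted p from 0.796 to 0.984). TIE1 averaged 0.655 CPM in dendritic-like, 1.43 CPM in monocyte-like and 2.74 CPM in macrophage-like cells, against 113 CPM in endothelial-like cells.

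The partners of this receptor pair were measured too. PTPRB (VE-PTP), the phosphatase that acts on TEK, was highest in endothelial-like cells, with 872 and 845 CPM with 1797 and 538 and 644 CPM with control peptide. Both 1797 libraries were above both control libraries; the log2 fold change of 0.60 ± 0.24 had an unadjusted p of 0.0347 and an adjusted p of 0.998 (edgeR). FOXO1, a transcription factor that TEK signalling restrains in endothelium, had 762 and 496 CPM against 456 and 603 CPM there and was highest in T-like cells (909 ± 44.8 CPM). SVEP1, a matrix protein known in mice as a ligand of TIE1, was highest in fibroblast-like cells (84.4 ± 13.6 CPM), and DOK2, an adaptor of TEK, in NK-like and cytotoxic cells (74.6 ± 12.2 CPM). Of the 6 genes of this list, 5 could be tested in all cells, 2 in endothelial-like and 3 in mural-like cells, and 0 passed in any of them.

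DLL4 (chromosome 1, 130376720 to 130386411) had 56.4 and 67.9 CPM in endothelial-like cells with 1797 and 40.0 and 56.5 CPM with control peptide. Control library 2 lay just above 1797 library 1, so the groups overlapped, and the log2 ratio of the groups was 0.37 ± 0.30 (quasi-likelihood test of edgeR, adjusted p = 0.998). DLL1 (chromosome 1, 198815 to 211346) had 48.4 and 70.7 CPM against 54.4 and 30.9 CPM (log2 fold change 0.59 ± 0.33, adjusted p = 0.998, edgeR). Mural-like cells had no more than 1.73 CPM of DLL4 in any library but 36.7 ± 14.3 CPM of DLL1, which overlapped with the 51.1 ± 16.4 CPM of DLL1 in endothelial-like cells (SD, n = 4). Macrophage-like cells held 14.3% of DLL1 UMIs at 5.27 and 8.47 CPM with 1797 against 3.65 and 4.70 CPM with control peptide. There the groups did not overlap, and the log2 fold change of 0.80 ± 0.38 had the lowest adjusted p of these genes in the main fits, 0.489 (edgeR). Of all genes tested in macrophage-like cells, 10.8% had an unadjusted p under 0.05 (edgeR) and 44.4% had groups apart. Median depths in that class were 3402.5 and 23934 UMIs with 1797 against 2976 and 1002 UMIs with control peptide.

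After endothelial-like cells, DLL4 was highest in osteoblast-like cells, at 30.2 ± 20.6 CPM (SD, n = 4), and there mainly in 1 of 2 sub-clusters. Osteoblast-like cells held 4.15% of its UMIs, T-like cells 5.34%, and unnamed clusters, some with endothelial markers, 10.2%. The 81 cells led by FAM83D, ARMC5 and WNT9A had 134 CPM (95% Poisson interval 99.8 to 176) from 51 UMIs. The 52 cells with the osteoblast gene IFITM5 among their leading genes had 2.71 CPM (0.879 to 6.32) from 5 UMIs. Their median depths were 3797 and 32483.5 UMIs, and the part of depth was not tested. The FAM83D cells were also above the IFITM5 cells for DLL1 (71.0 against 2.71 CPM), NOTCH1 (73.6 against 21.1 CPM) and PDGFRB (52.6 against 6.5 CPM). ANGPT1 had 121 CPM (88.5 to 161) in the FAM83D cells against 151 CPM (134 to 170), with overlapping intervals. Its order differed by library, with 113 against 91.5 CPM in 1797 library 1 and 116 against 202 CPM in control library 1. ANGPT2 (2.63 against 4.33 CPM) came from 1 UMI against 8, too few to give an order. In the FAM83D cells DLL4 was at 33.2 CPM in 1797 library 1 and at 153 and 411 CPM with control peptide, while 1797 library 2 had 7 such cells and was not computed. A shallow cluster of 633 cells, with FAM83D and WNT9A among its leading genes, had 52.3 CPM of DLL4 (40.9 to 66.0). That cluster was left unnamed because it raised fewer than 3 markers of any list. When every cell was thinned to 1000 UMIs, 8.33% of osteoblast-like cells had a DLL4 UMI (11 cells) against 4.66% of endothelial-like cells (35 cells) and 0.0398% of neutrophil-like cells, and by this measure osteoblast-like cells came first. Shares before thinning were 19.5%, 47.4% and 0.0672%, at median depths of 6665, 16237 and 1757 UMIs.

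NOTCH3 (chromosome 2, 62364507 to 62402348) had 339 and 389 CPM in mural-like cells with 1797 and 318 and 425 CPM with control peptide. The control values enclosed the 1797 values, and the log2 ratio of the groups was 0.02 ± 0.28 (quasi-likelihood test of edgeR, adjusted p = 0.999). PDGFRB and NOTCH3 UMIs were found together in 378 of 441 mural-like cells. An uncharacterised gene that overlaps NOTCH3 by 500 bases, LOC100628051, was also highest in mural-like cells, at 40.2 ± 15.6 CPM. Fibroblast-like cells had 24.2 ± 4.01 CPM of NOTCH3 and endothelial-like cells 7.10 ± 4.53 CPM (SD, n = 4), without overlap between these 3 classes.

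In endothelial-like cells NOTCH3 had 5.10 and 2.79 CPM with 1797 and 7.18 and 13.3 CPM with control peptide, from 44 and 3 UMIs against 7 and 72 UMIs. The groups did not overlap, but the UMIs came from few cells: 10 and 2 cells with 1797 and 5 and 13 cells with control peptide, with 75 of the UMIs in 13 cells of sub-cluster 7. The log2 fold change was -1.26 ± 0.54, with an unadjusted p of 0.0475 and an adjusted p of 0.998 (edgeR). PDGFRB ran the same way in these cells (8.11 and 6.51 CPM against 10.3 and 15.7 CPM; -0.79 ± 0.44, adjusted p = 0.998, edgeR), from 16 and 2 cells against 4 and 17 cells. The 12 measured mural markers summed to 183 and 127 CPM in endothelial-like cells with 1797 and 142 and 135 CPM with control peptide. The part of mural transcripts in the NOTCH3 and PDGFRB values was not tested.

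NOTCH1, whose annotated position is on an unplaced scaffold, had 120 and 102 CPM in mural-like cells with 1797 and 143 and 102 CPM with control peptide (log2 fold change 0.00 ± 0.34, adjusted p = 0.999, edgeR). Monocyte-like cells followed with 93.3 ± 6.22 CPM, osteoclast-like cells with 82.6 ± 16.4 CPM, endothelial-like cells with 74.8 ± 12 CPM and NK-like and cytotoxic cells with 72.1 ± 3.65 CPM (SD, n = 4). Within these 4 classes each overlapped with the next. Monocyte-like cells did not overlap with mural-like cells above them, nor NK-like and cytotoxic cells with dendritic-like cells, the next class. The lowest of the 15 classes, neutrophil-like cells, had 23.8 ± 4.53 CPM, and chondrocyte-like cells, outside that order, had 9.09 CPM with the libraries pooled (13 UMIs). In endothelial-like cells NOTCH1 had 78.2 and 67.0 CPM with 1797 against 90.3 and 63.9 CPM with control peptide (log2 fold change 0.03 ± 0.26, adjusted p = 0.999, edgeR). UMIs of DLL4 and NOTCH1 were found together in 275 of 760 endothelial-like cells, of DLL4 alone in 85 and of NOTCH1 alone in 214.

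Other Notch genes were spread over more classes. Among the other ligands and receptors, JAG1, a ligand, was highest in mural-like cells (283 ± 56.0 CPM), NOTCH4 in endothelial-like cells (69.3 ± 8.95 CPM), NOTCH2 in neutrophil-like cells (1090 ± 349 CPM) and DNER in T-like cells (26.7 ± 8.23 CPM; SD, n = 4). JAG1 in mural-like cells had 339 and 319 CPM with 1797 against 253 and 220 CPM with control peptide (log2 fold change 0.57 ± 0.28, adjusted p = 0.999, edgeR), without overlap. Of these 7 ligands and receptors, 5 could be tested in endothelial-like and 3 in mural-like cells, and 0 passed. Of the Notch target genes, HEYL was highest in mural-like cells with 367 and 348 CPM with 1797 against 200 and 291 CPM with control peptide, again without overlap and with a log2 fold change of 0.59 ± 0.30 that did not pass (adjusted p = 0.999, edgeR). NRARP, a feedback inhibitor, had 124 and 111 CPM in mural-like cells with 1797 against 93.8 and 78.9 CPM with control peptide (0.56 ± 0.35). HES1 had a negative log2 fold change there (19.2 and 28.7 CPM against 53.0 and 22.6 CPM, -0.52 ± 0.56), but the groups overlapped. Its highest value came from the 16 mural-like cells of control library 1. DTX1 was highest in dendritic-like cells (92.9 ± 30.2 CPM).

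Of the 8 target genes, 6 could be tested in mural-like cells, where 5 had a positive and 1 a negative log2 fold change (median 0.46, beside 0.00 for all genes tested), and 5 in endothelial-like cells, with 4 positive and 1 negative (median 0.54, beside -0.01). In both classes 0 passed. The processing genes, which cut, modify or transmit the Notch signal, had 0 of 19 past the test in endothelial-like and 0 of 18 in mural-like cells. RBPJ, the DNA-binding partner of cleaved Notch, had 281 and 147 CPM in mural-like cells with 1797 against 547 and 343 CPM with control peptide (-0.89 ± 0.36, unadjusted p = 0.0314, adjusted p = 0.999, edgeR). It was the 1 gene of the 18 with an unadjusted p under 0.05. MAML2, a co-activator, had 681 and 652 CPM in endothelial-like cells against 1170 and 845 CPM (-0.51 ± 0.22, adjusted p = 0.998, edgeR). NUMB, which restrains Notch, had 496 and 493 CPM against 428 and 361 CPM there (0.41 ± 0.21).

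Sub-clusters of mural-like cells differed in the members they carried. The 263 cells led by ANKH and FLT1 had 592 CPM of PDGFRB, 215 CPM of ANGPT1 and 150 CPM of ANGPT2, 4 libraries pooled. The 112 cells led by ATP13A4 and GRM7 had 708 CPM of PDGFRB, 612 CPM of ANGPT1 and 267 CPM of ANGPT2. The 29 cells led by RELN, ADRA1A and CTNNA3 had the highest NOTCH3 (548 CPM, 95% Poisson interval 478 to 625) and 427 CPM of PDGFRB. In the libraries with enough cells of both, the higher ANGPT1 of the GRM7 cells was seen in 1797 library 1 (583 CPM, against 199 CPM in the ANKH cells) and in control library 2 (770 CPM, against 223 CPM). The GRM7 cells had a median depth of 4999 UMIs and the ANKH cells 17336 UMIs, and the part of depth was not tested. ANGPT1 UMIs were found in 62 of 112 GRM7 cells and in 197 of 263 ANKH cells. The sub-clusters were found from the same cells, and no test was made.

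**Figure D4:**
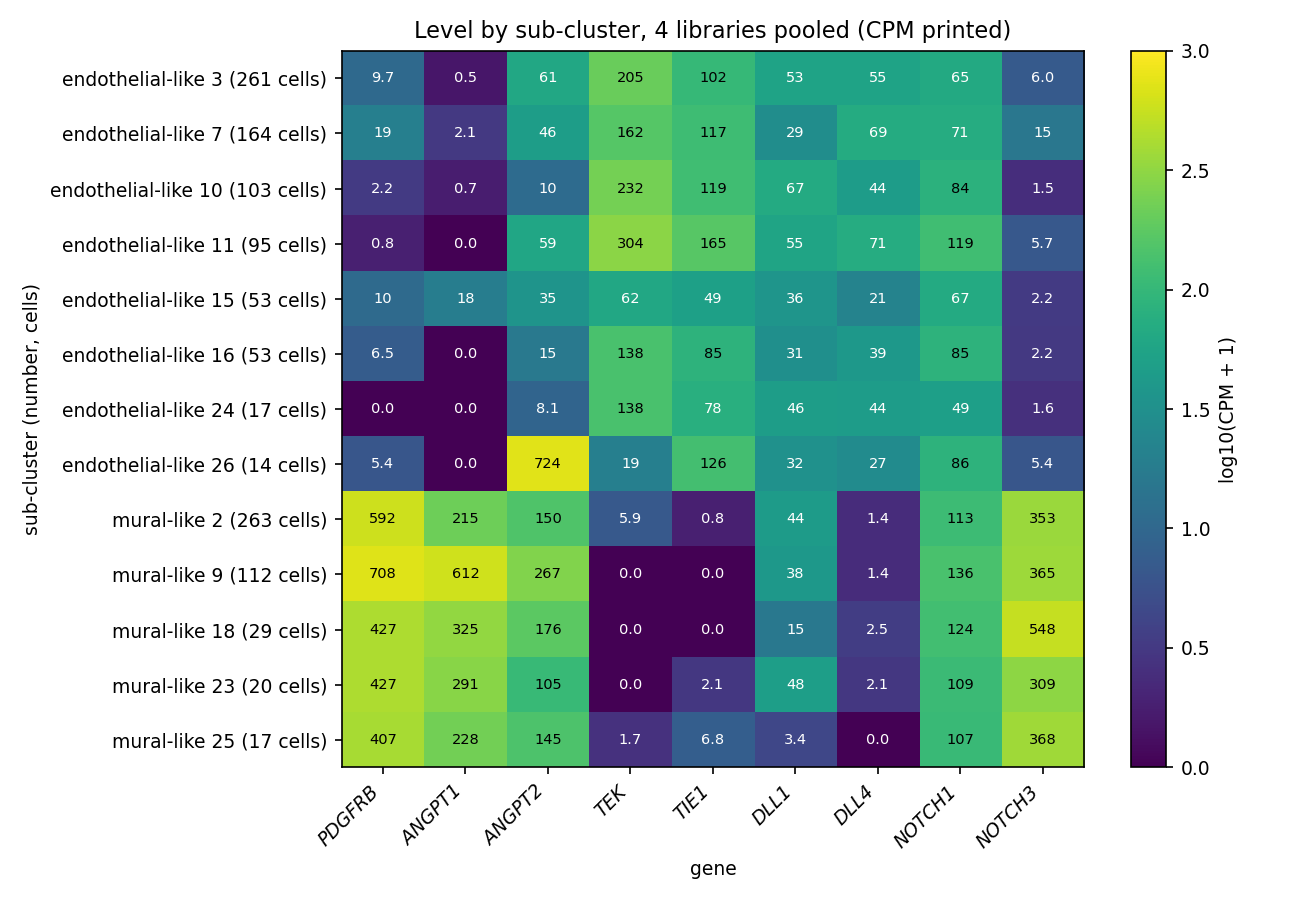
CPM with the 4 libraries pooled (printed; colour is log10 of CPM + 1) for 9 genes in 8 endothelial-like and 5 mural-like sub-clusters, each with its number of cells. ANGPT2 stands at 724 CPM in the 14 lymphatic endothelial-like cells (number 26), where TEK is at 18.8 CPM, and ANGPT1 at 612 CPM in mural-like sub-cluster 9.

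Among endothelial-like sub-clusters, with the libraries pooled, TEK was at 304 CPM and TIE1 at 165 CPM in 95 cells with the venous genes SELP and ACKR1. They were at 232 and 119 CPM in the 103 cells with STAB2, a sinusoid gene, and at 205 and 102 CPM in the 261 cells of sub-cluster 3. In the 164 arterial-like cells they were at 162 and 117 CPM (GJA5, GJA4, SEMA3G and CXCL12 raised, with neutrophil genes also leading). The order of TEK changed between libraries. The SELP, STAB2 and sub-cluster 3 cells had 274, 273 and 203 CPM in 1797 library 1 and 136, 173 and 242 CPM in control library 1. In control library 2 the SELP and STAB2 cells had 531 and 251 CPM, from 13 and 29 cells. The 9 neutrophil markers summed to 98.0 and 606 CPM in endothelial-like cells with 1797 and 251 and 1002 CPM with control peptide, and their part in the members' levels was not tested. Pooled DLL4 was at 69.1 CPM in the arterial-like cells, 70.9 CPM in the SELP cells and 44.1 CPM in the STAB2 cells. The arterial-like and SELP cells changed order between libraries, with 107 against 73.2 CPM in 1797 library 1 and 60.1 against 79.0 CPM in control library 2. The libraries drew on different sub-clusters: sub-cluster 3 held 224 and 17 cells with 1797 and 13 and 7 with control peptide, the arterial-like cells 40 and 8 against 6 and 110, and the STAB2 cells 27 and 7 against 40 and 29. A difference between groups over all endothelial-like cells therefore also holds this difference in make-up, whose part was not tested.

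For each member the genes most alike in level were found over 56 sums of a class and library (17 classes, 13512 genes, Pearson's r of log2(CPM + 1); sums of 1 class or 1 library share cells or depth, so this is a description). PDGFRB was most like DLG5 (r = 0.889), GUCY1B3 and OLFML2B, ANGPT1 most like TCF21 (0.951), and NOTCH3 most like ADCY5 (0.905), AJUBA and its target HEYL (0.899). TEK was most like RAMP2 (0.937), TIE1 most like VWF (0.904) and DLL4 most like BCL6B (0.858), 3 further genes of endothelial-like cells. ANGPT2 (ITGA1, 0.796), NOTCH1 (ZNF638, 0.834) and DLL1 (TMC7, 0.909) complete the set.

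The design sets the 1797 peptide against the control peptide. With all kept cells of a library summed, 8 of the 9 genes had their highest levels in the libraries with most vessel cells. PDGFRB had 47.1 and 8.55 CPM with 1797 and 7.33 and 29.3 CPM with control peptide, NOTCH3 had 22.9 and 1.79 CPM against 1.85 and 12.9 CPM, and TIE1 had 12.7 and 2.70 CPM against 2.18 and 7.31 CPM. In each of these, and for ANGPT1, ANGPT2, TEK, DLL1 and DLL4, 1797 library 1 was highest and control library 2 next, as for the cell shares. The 12 endothelial markers summed to 764 and 381 CPM in all cells with 1797 against 263 and 591 CPM with control peptide, and the 12 mural markers to 397 and 50.4 CPM against 75.7 and 210.3 CPM; their part in these values was not tested. In such sums fewer cells of a type and less RNA per cell cannot be told apart. All 9 log2 fold changes were positive, from 0.02 ± 0.52 (ANGPT2) to 1.09 ± 0.55 (DLL1), with adjusted p = 1.00 for each (edgeR). The groups of 0 of the 9 genes were apart, beside 24.9% of all genes tested. NOTCH1, which most classes carry, was the steadiest, with 56.8 and 47.5 CPM against 52.0 and 48.0 CPM. Without 1797 library 1, 8 of the 9 fold changes were negative, down to -1.98 for NOTCH3, and DLL1 stayed at 0.29.

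**Figure D5:**
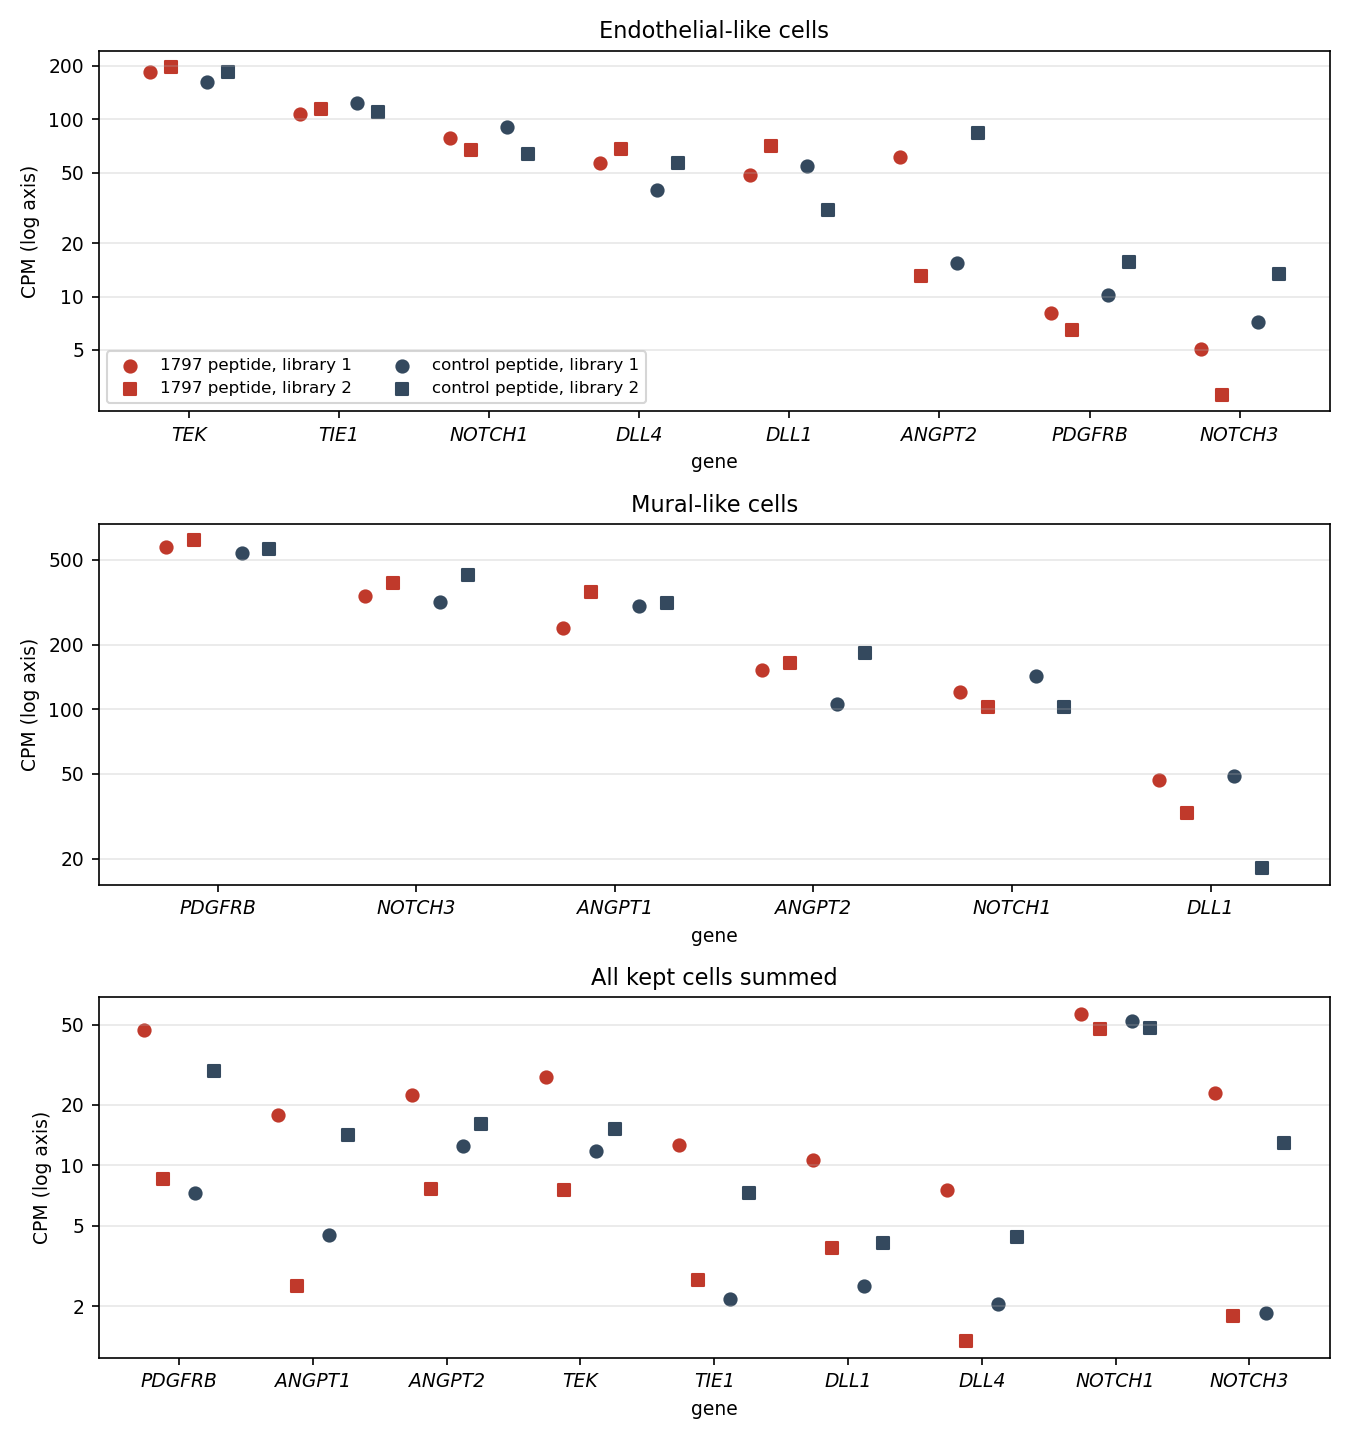
CPM (log axis) of each gene in each library, in endothelial-like cells, mural-like cells and all kept cells summed; red is the 1797 peptide (library 1 circle, library 2 square) and dark blue the control peptide. TEK (162 to 196 CPM) and TIE1 (107 to 123 CPM) lie close in endothelial-like cells and PDGFRB (534 to 614 CPM) in mural-like cells, while in all cells 1797 library 1 and control library 2 stand above the other libraries for genes of vessel cells.

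The edgeR test called 0 of the 9 genes in all cells, where it called 0 of 16654 genes (0%), with 264 at an unadjusted p under 0.05. It called 0 of the 8 genes tested in endothelial-like cells, where 0 of 11602 genes (0%) were called and 521 had an unadjusted p under 0.05, and 0 of 6 in mural-like cells, beside 0 of 9254 genes (0%) and 308. DESeq2 also called 0 of these genes; over all genes it called 18 of 18990 (0.0948%) in all cells, 17 of 9568 (0.178%) in endothelial-like cells and 3 of 16606 (0.0181%) in mural-like cells. The groups did not overlap for 3 of 8 genes in endothelial-like cells (TEK, NOTCH3 and PDGFRB), beside 33.6% of all genes tested. In mural-like cells this held for 1 of 6 (PDGFRB), beside 31.5%. The first share is near its background and the second below it, and neither difference was tested. The medians of the fold changes were 0.02 and 0.08, beside -0.01 and 0.00 for all genes. Mural-like and osteoblast-like cells, under 20 in some libraries, were added to the fits once their numbers were known.

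In the other 11 classes tested, the members that could be fitted gave 0 calls as well, as did all genes (0% in each, with 73 to 1367 genes a class at an unadjusted p under 0.05). DESeq2 called 0 of 91 tests of members over all fits, with 0 at an unadjusted p under 0.05. The shares of all genes whose groups did not overlap were 39.5% in B-like, 30.7% in NK-like and cytotoxic, 33.3% in T-like, 34.8% in dendritic-like, 44.4% in macrophage-like, 39.5% in monocyte-like, 23.3% in neutrophil-like and 32.8% in osteoclast-like cells. Beside these, members without overlap were 1 of 6, 1 of 4, 2 of 8, 2 of 5, 3 of 7, 2 of 5, 2 of 5 and 2 of 2. NOTCH1 was in 6 of these 8 sets: both 1797 libraries were above both control libraries in monocyte-like, macrophage-like, neutrophil-like and osteoclast-like cells, and below them in B-like and in NK-like and cytotoxic cells. The largest of these 6 differences was 0.47 ± 0.40 on the log2 scale (neutrophil-like cells). Members without overlap were 0 of 7 in fibroblast-like, 0 of 1 in erythroid-like and 2 of 4 in osteoblast-like cells. The share over all genes was not computed for these classes. In osteoblast-like cells PDGFRB had 22.2 and 46.2 CPM with 1797 against 7.93 and 9.08 CPM with control peptide, from 14 and 6 UMIs against 9 and 3 UMIs (1.79 ± 0.72, unadjusted p = 0.0374, adjusted p = 1.00, edgeR).

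Genes of vessel quiet and of contact between the wall's cells did not pass either, with 0 of 12 in endothelial-like and 0 of 12 in mural-like cells. S1PR1, a receptor that tightens endothelial junctions, had 409 and 410 CPM in endothelial-like cells with 1797 against 368 and 482 CPM with control peptide. ENG, a TGF-β co-receptor, had 403 and 395 CPM against 296 and 342 CPM (0.39 ± 0.23, adjusted p = 0.998, edgeR), without overlap. KLF2, a flow-induced transcription factor, had 219 and 240 CPM against 321 and 147 CPM, and TGFB1 had 297 and 298 CPM against 315 and 394 CPM.

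Genes of the vascular basement membrane, the sheet that endothelial and mural cells build together, were all measured. In endothelial-like cells 10 of 10 had a positive log2 fold change (median 0.24, beside -0.01 for all genes) and in mural-like cells 8 of 10 (median 0.19, beside 0.00), and 0 passed in either. COL4A1 and COL4A2, the chains of type IV collagen, were highest in mural-like cells, at 5760 and 5900 CPM (COL4A1) with 1797 against 5100 and 4780 CPM with control peptide, and at 2440 and 2710 CPM (COL4A2) against 2030 and 2360 CPM. LAMC1, a laminin chain, had 919 and 1330 CPM in mural-like cells against 669 and 651 CPM (0.84 ± 0.25, unadjusted p = 0.00634, adjusted p = 0.999, edgeR). HSPG2 (perlecan) was highest in endothelial-like cells, with 790 and 728 CPM against 735 and 713 CPM (0.14 ± 0.21).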

How the data were processed

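Each deposited matrix holds raw UMI counts, unnormalized, of 20648 genes by cell barcode. The authors counted reads with Cell Ranger 5.0.0 on Sscrofa11.1 per the submitters' processing notes, while the matrices name version 7.0.1 per the file headers; whether intron reads or strand were used is not given in the sources used here. Library totals were 87844389 and 98758412 UMIs (1797) and 96410215 and 98294210 UMIs (control). The intervals given cover counting error only. Gene positions are from a RefSeq table of that build, with 1-based starts.

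A barcode was kept if it had 200 genes or more and less than 20% mitochondrial counts, and 1798 doublets called by Scrublet (scanpy 1.11.5) were removed. Cells were clustered (2000 variable genes without the 9 members, 30 principal components, 15 neighbours, Leiden resolution 1.0) into 43 clusters, and 3067 stromal cells were clustered again into 27 sub-clusters. A name needed at least 3 markers of a list at 2-fold or more over other cells, and a shallow cluster 2 of them among its top 10 genes. "X-like" means such a cluster.

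Counts were summed per library and class and tested with edgeR 4.0.16 (quasi-likelihood, TMM, filterByExpr, Benjamini-Hochberg over all genes of a fit, called at an adjusted p of 0.05), for each class that reached 20 cells in all libraries; DESeq2 1.42.0 was the second tool. The edgeR test was also run on simulated counts, whose outcome is not reported here. Alternatives changed the size factors, the low-count filter, the cell filter, doublet removal, the Leiden resolution, the clustering genes or the denominator of shares, took the replicate number as a block, or omitted 1 library at a time. The named genes are the members and, of each of 7 pathway lists, up to 4 genes with the most UMIs over all cells (1 of them is not reported here); genes such as those in the sub-clusters were named after their values were seen. The members and lists were chosen with earlier results of these data known.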

Additional observations from a re-analysis of the deposited data

Results flagged for a closer look

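2 members had libraries apart in opposite directions in different cell classes, both 1797 libraries above both control libraries in some and below them in others. The difference between the classes was not tested, and 0 of these values passed in their own class (edgeR, adjusted p from 0.649 to 1.00). Groups apart were seen for 23.3% to 44.4% of all genes in these classes.

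NOTCH1 was higher with 1797 in 4 classes. It had 101 and 95.8 CPM in monocyte-like cells with 1797 against 89.1 and 87.4 CPM with control peptide (log2 fold change 0.21), and 33.0 and 34.5 CPM against 31.7 and 29.0 CPM in macrophage-like cells (0.21). Neutrophil-like cells had 22.3 and 30.5 CPM against 22.0 and 20.5 CPM (0.47) and osteoclast-like cells 79.7 and 107 CPM against 71.7 and 72.2 CPM (0.39). It was lower in 2 classes, with 25.6 and 25.3 CPM against 28.4 and 27.6 CPM in B-like cells (-0.08) and 68.4 and 69.7 CPM against 74.2 and 76.1 CPM in NK-like and cytotoxic cells (-0.09). In T-like cells (57.0 and 40.4 CPM against 50.6 and 44.8 CPM) and dendritic-like cells (45.6 and 51.5 CPM against 47.3 and 48.7 CPM) the groups overlapped.

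ANGPT2 was higher with 1797 in dendritic-like cells, with 5.99 and 7.66 CPM against 4.87 and 5.55 CPM with control peptide (0.39). It was lower in T-like cells (-0.47), in macrophage-like cells (3.66 and 2.82 CPM against 3.87 and 5.03 CPM, -0.41) and in neutrophil-like cells (0.525 and 0.785 CPM against 1.95 and 1.47 CPM, -1.10, from 2 and 9 UMIs against 7 and 20).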

How the results depend on the processing

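The calls of members were 0 under each of the 204 alternatives to a count of calls, over 15 settings and 14 fits, with a lowest adjusted p of 0.244; where a library is left out, the lone library of its group is assumed to vary like the other group. The labels tie the replicate numbers to no shared animal, batch or day, and the pairing was checked in 2 fits: deviations of same-numbered libraries correlated at -0.309 in all cells and -0.0406 in endothelial-like cells. Other classes were not checked, and neutrophil-like shares (18.1% and 41.0% with 1797, 15.8% and 34.6% with control peptide) followed the number. With the replicate block, members called stayed at 0 in every fit, all genes called were 0 in endothelial-like and 19 in mural-like cells, and the log2 ratios of cell shares were 0.30 (endothelial-like) and 0.81 (mural-like); with crossed numbers as a block, chosen after the data were seen, the counts were 8 and 26. With 1 library left out, the endothelial-like share ran from -1.31 to 1.64 and the mural-like share from -1.93 to 3.41, and both turned negative without 1797 library 1. Without 1 library, all genes called were 17 to 90 in endothelial-like and 41 to 109 in mural-like cells, against 0 with all 4 libraries, and without a filter on low counts 174 and 47; the cause was not tested. After thinning to 1000 UMIs, 7 of 9 genes were highest in the same class as by CPM, with DLL1 then highest in mural-like and DLL4 in osteoblast-like cells; at both other Leiden resolutions all 9 were, and mean TIE1 in endothelial-like cells moved to 106 and 105 CPM. Of 308 alternative values of single fold changes, 44 changed sign, none of them called. Cell numbers limit these data, with as few as 16 mural-like and 10 osteoblast-like cells in a library.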
